A study of Mus musculus with 10 samples.

Results

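The DNA replication machinery was followed here as 32 genes of origin licensing, the replicative helicase, the polymerases and primase, the sliding clamp and Okazaki fragment processing, nucleotide supply and G1/S control. The genes came from a fixed list of symbols, and all 32 had a probe set carrying that symbol alone, out of 19938 genes measured in this way. Where a gene had several such probe sets, the one with the highest mean over the arrays was used. RNA from 10 mouse thyroid tumours was hybridised to Affymetrix whole-transcript arrays, 1 array per tumour, and every value below is a log2 intensity. All tumours came from mice of a mixed C57BL/6;129SvJae background carrying TPOCreER and the BrafV600E allele. TPOCreER is a tamoxifen-responsive Cre recombinase under the thyroid peroxidase promoter, which restricts recombination to thyroid follicular cells. The 5 papillary thyroid carcinomas (PTC) carried no further allele in the labels, and the 5 anaplastic thyroid carcinomas (ATC) were also p53 -/-. Tumour type and p53 genotype therefore cannot be told apart. The labels used here give no ages and do not say whether each tumour came from its own animal, so the errors measure the spread between these tumours.

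To copy its genome once per cell cycle, a cell first loads the Mcm2 to Mcm7 helicase rings onto origins in G1, with the origin recognition complex, Cdc6 and Cdt1 as loaders. At the start of S phase, cyclin-dependent kinases and the Dbf4-dependent kinase Cdc7 convert the rings into active helicases by adding Cdc45 and the GINS complex. Primase and polymerase alpha then lay down primers, the RFC clamp loader places PCNA rings, and polymerases epsilon and delta extend the strands. Transcription of many of these genes is controlled by E2F factors, which the retinoblastoma family restrains, and p53 can lower it through p21. In bulk tumour RNA, more dividing cells and more RNA per dividing cell cannot be told apart.

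Promoters of some of the genes are shown first, chosen because they hold a binding word of the E2F factors. RefSeq promoter windows of assembly GRCm38.p6, reaching from 250 bases before to 50 bases after a transcription start, were matched by symbol to 26 of the 32 genes, as 30 windows. Those of Ccne2, Gins1, Gins2, Mcm4, Pole and Prim2 were not analysed here. Windows were searched on both strands for the E2F words TTTGGCGC, TTTGCCGC, TTTCGCGC and TTTCCCGC, whose matches can overlap one another. Below are 7 stretches, 5′ to 3′ along the gene's own strand, with the matches in capitals. The first 4 genes rose in ATC and the other 3 did not pass the test.
Orc1, chr4:108579374-108579453, + strand: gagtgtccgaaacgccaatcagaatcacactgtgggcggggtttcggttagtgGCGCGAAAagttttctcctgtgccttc
Rfc3, chr5:151651209-151651268, − strand: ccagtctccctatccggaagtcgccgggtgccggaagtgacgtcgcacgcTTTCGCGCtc
Pola1, chrX:93632256-93632315, − strand: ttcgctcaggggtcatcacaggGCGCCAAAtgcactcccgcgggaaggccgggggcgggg
Mcm3, chr1:20820266-20820295, − strand: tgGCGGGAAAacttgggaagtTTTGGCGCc
Mcm5, chr8:75109329-75109398, + strand: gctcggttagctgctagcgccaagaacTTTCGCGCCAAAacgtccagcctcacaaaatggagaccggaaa
Mcm6, chr1:128359736-128359835, − strand: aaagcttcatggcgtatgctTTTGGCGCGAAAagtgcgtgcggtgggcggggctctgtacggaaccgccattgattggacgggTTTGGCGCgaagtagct
Cdc6, chr11:98907991-98908050, + strand: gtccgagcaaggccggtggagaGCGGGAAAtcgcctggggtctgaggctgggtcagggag

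An E2F word stood in 11 of the 30 windows, 36.7%, against 2.26% of the 32851 windows of all genes. The windows of these genes were richer in G and C, with a median of 57.3% against 52.7% over all windows, and the word itself is rich in them. Mcm5 and Mcm6 each held a pair of overlapping matches on opposite strands, and Mcm6 held a further match nearer the start. Rfc3 held a second match just past the stretch shown. The word was found for 6 of 16 matched genes that rose and 5 of 10 that did not pass. The 6 were Orc1, Mcm3, Mcm7, Pola1, Pole2 and Rfc3, and the 5 were Cdc6, Cdt1, Mcm5, Mcm6 and Lig1. A missing match says only that these letters are not in the window.

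**Figure D1:**
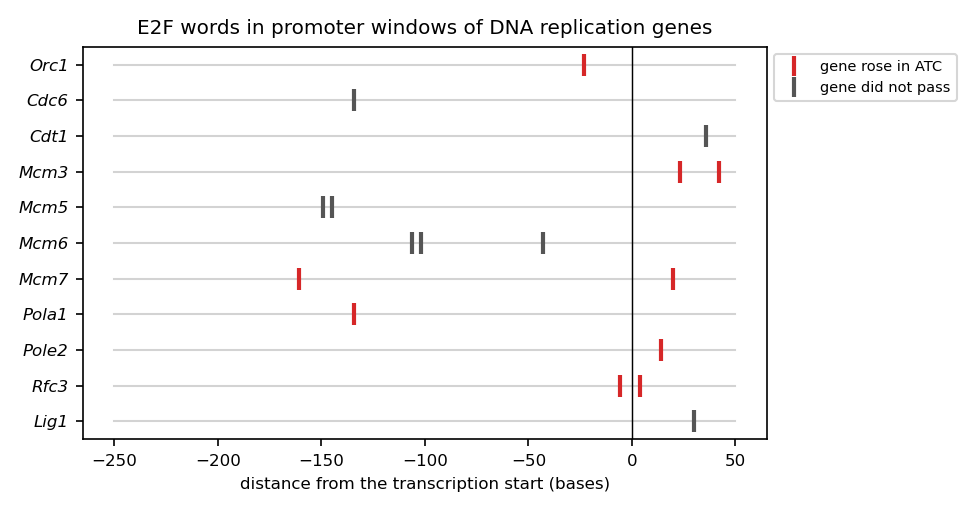
E2F word matches (vertical marks, at the middle of each match) in the promoter windows of the 11 genes that held one; the x axis is the distance in bases from the transcription start, and marks from all windows of a gene are drawn on 1 line. Matches of genes that rose in ATC (6 genes, red) and of genes that did not pass (5 genes, grey) lie on both sides of the start.

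Most of the replication genes were higher in ATC. A gene counts as risen or fallen where limma's p, adjusted by Benjamini-Hochberg across the 19938 genes, is below 0.05. By that measure 20 of the 32 rose and 0 fell, and the remaining 12 did not pass. The background was 11.5% of all genes higher and 9.72% lower. The difference was above 0 for 31 of 32 genes, against 46.2% of all genes, and the median was 0.44, against −0.018 over all genes. The changes were moderate: 0 of 32 exceeded 2-fold, and the largest, that of the clamp loader subunit gene Rfc4, was 1.96-fold. The groups were separate, with ATC higher, for 14 of the 32 genes, against 9.13% of all genes, and for 0 genes with ATC lower. These 14 comprised 13 of the 20 genes that rose and also E2f1, which did not pass.

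**Figure D2:**
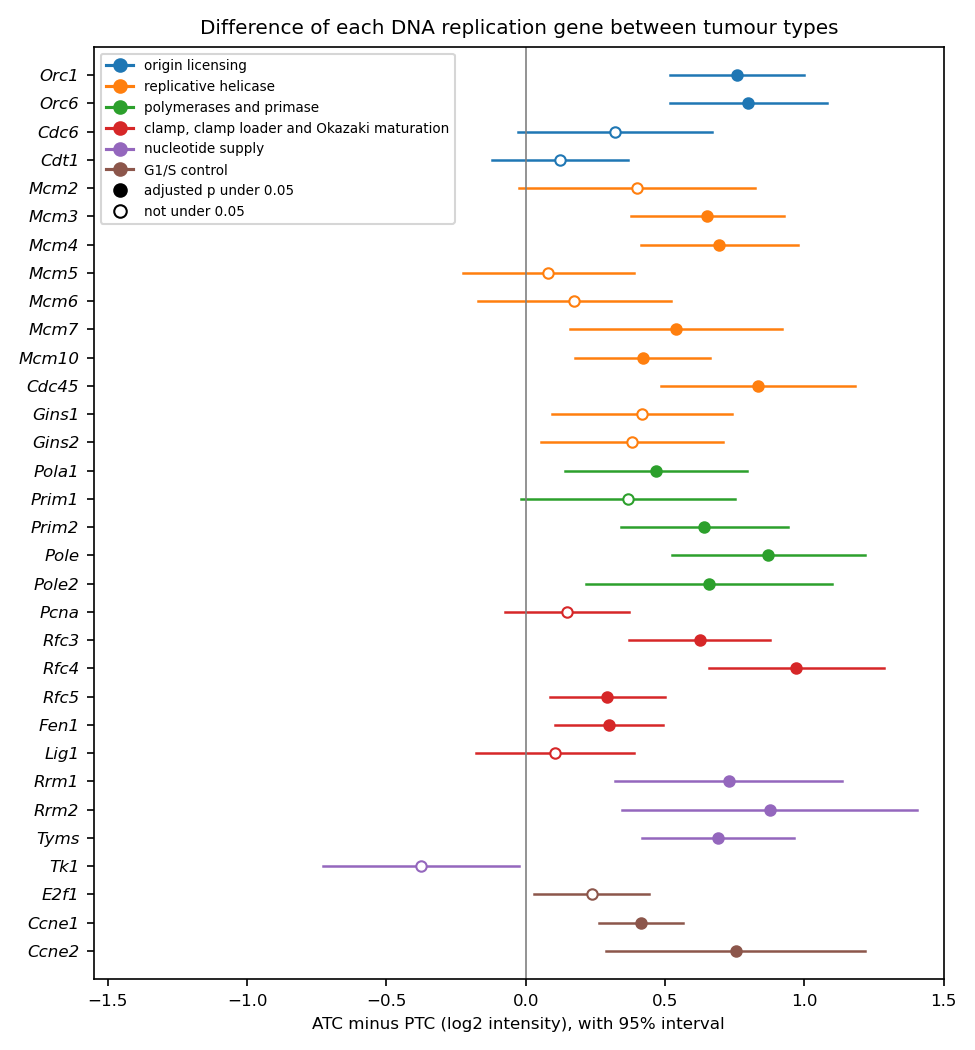
Difference ATC minus PTC in log2 intensity (points) with its 95% interval from the limma fit (lines) for the 32 genes, ordered and coloured by role; filled points passed an adjusted p of 0.05. The points run from −0.38 for Tk1 to 0.97 for Rfc4, and 20 are filled.

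The count was lower in 9 of the 10 fits that left out 1 array, and lowest without ATC replicate 5. That array had the widest intensity distribution (quartiles of 6.02 and 8.72 against 6.10 to 6.19 and 8.57 to 8.64 on the others) and the lowest array weight, 0.38. It held the highest ATC value for 17 of the 32 genes. Without it, 13 genes rose, against 10.4% of all genes, and Tk1 passed as lower. The count was 13, against 9.14%, without PTC replicate 5 as well, which was the PTC array of lowest weight, and 15, against 9.95%, without PTC replicate 5 alone. It was 14 without PTC replicate 3, ATC replicate 2 or ATC replicate 3, against 8.84%, 11.1% and 10.4% of all genes. It was 15 without PTC replicate 1 or ATC replicate 1, against 8.98% and 9.74%, and 16 without PTC replicate 2 or 4, against 9.73% and 8.87%. With p adjusted over all probe sets it was 16, against 9.59% of the same 19938 genes. The same 13 genes, listed here by role, passed in each of the 10 fits that left out 1 array: Orc1, Orc6, Mcm3, Mcm4, Mcm10, Cdc45, Prim2, Pole, Rfc3, Rfc4, Rrm1, Tyms and Ccne1. They are also the 13 whose groups did not overlap. The other 7, Mcm7, Pola1, Pole2, Rfc5, Fen1, Rrm2 and Ccne2, each lost the call in 4 or more of those fits.

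Among the 4 licensing factors, Orc1 and Orc6 of the origin recognition complex rose and the helicase loaders Cdc6 and Cdt1 did not pass. Orc1, the large ATPase subunit that is made anew for each G1, was at 6.80, 6.68, 6.61, 6.42 and 6.67 in PTC replicates 1 to 5 and at 7.29, 7.30, 7.49, 7.16 and 7.72 in ATC replicates 1 to 5. The lowest ATC tumour lay above the highest PTC tumour. The means were 6.64 ± 0.14 and 7.40 ± 0.22 (SD, n = 5 each), a difference of 0.76 (95% interval 0.52 to 1.00, adjusted p = 0.000834 by limma). Orc6, the smallest subunit of the complex, was at 9.36, 9.27, 9.25, 9.39 and 9.49 in PTC and at 9.83, 10.09, 10.63, 10.13 and 10.08 in ATC. The groups were again separate, with ATC replicate 3 the highest, and the difference was 0.80 (95% interval 0.52 to 1.08, adjusted p = 0.00142).

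Cdc6, the ATPase that recruits the helicase with the origin complex, was at 6.86, 6.72, 6.79, 7.07 and 6.98 in PTC and at 6.89, 7.17, 7.16, 6.98 and 7.84 in ATC. The groups overlapped, with ATC replicates 2, 3 and 5 above the PTC range and replicate 5 the highest. The Cdc6 difference was 0.32 (95% interval −0.03 to 0.67, adjusted p = 0.188 by limma). For Cdt1, the loader that geminin blocks outside G1, PTC ranged from 7.22 to 7.35 and ATC from 7.17 to 7.73, a difference of 0.12 (95% interval −0.12 to 0.37, adjusted p = 0.499). ATC replicates 3 and 5, at 7.73 and 7.67, lay above the rest, and replicates 2 and 4 were below the PTC range.

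The 6 subunits of the helicase ring, which assemble in equal numbers, did not all pass. Mcm3, Mcm4 and Mcm7 rose, and Mcm2, Mcm5 and Mcm6 did not pass; whether their differences are unequal was not tested. Mcm4 was at 8.13, 8.09, 8.04, 7.99 and 7.92 in PTC and at 8.62, 8.88, 9.11, 8.30 and 8.72 in ATC. No ATC tumour reached down to the PTC range, and the difference was 0.70 (95% interval 0.41 to 0.98, adjusted p = 0.00315). Mcm3 ranged from 7.78 to 7.95 in PTC and from 8.12 to 8.94 in ATC, also without overlap (difference 0.65, 95% interval 0.38 to 0.93, adjusted p = 0.00396). Mcm7 was at 7.74, 7.43, 7.83, 7.70 and 7.90 in PTC and at 8.23, 8.42, 8.47, 7.58 and 8.59 in ATC. Here 4 ATC tumours stood above the PTC range and ATC replicate 4 within it (difference 0.54, 95% interval 0.16 to 0.92, adjusted p = 0.0469). The Mcm7 call remained only in the fit without ATC replicate 4 among the 10 that left out an array, where its difference was 0.71, and adjusted p ran from 0.00157 to 0.105.

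Mcm2 was at 7.92, 7.75, 7.86, 7.96 and 8.39 in PTC and at 7.97, 8.29, 8.86, 7.98 and 8.78 in ATC. PTC replicate 5 reached into the ATC range, and ATC replicates 1 and 4 stayed near the other PTC tumours (difference 0.40, 95% interval −0.02 to 0.82, adjusted p = 0.177). Mcm5 was at 7.99, 7.93, 7.96, 7.86 and 8.02 in PTC and at 7.61, 8.12, 8.02, 7.88 and 8.53 in ATC. The ATC values lay on both sides of the narrow PTC range, with replicate 1 below it and replicates 2 and 5 above. Its difference was 0.08 (95% interval −0.23 to 0.39, adjusted p = 0.743) and −0.04 without ATC replicate 5. Mcm6 likewise ranged from 9.22 to 9.36 in PTC and from 8.93 to 9.99 in ATC, a difference of 0.17 (95% interval −0.17 to 0.52, adjusted p = 0.497) that was 0.048 without ATC replicate 5.

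Of the factors that turn the loaded ring into a moving helicase, Cdc45 and Mcm10 rose and the GINS subunits did not pass. Cdc45, the helicase cofactor, was at 7.55, 7.43, 7.54, 7.64 and 7.57 in PTC and at 8.34, 8.50, 8.92, 7.83 and 8.30 in ATC. The groups did not overlap and ATC replicate 4 came closest to PTC. Its difference was 0.83 (95% interval 0.49 to 1.18, adjusted p = 0.00373), a 1.78-fold rise. Mcm10, which activates the assembled helicase, ranged from 6.64 to 6.82 in PTC and from 6.86 to 7.38 in ATC (difference 0.42, 95% interval 0.18 to 0.66, adjusted p = 0.0193). Gins1 and Gins2, subunits of the GINS complex, differed by 0.42 (95% interval 0.09 to 0.74, adjusted p = 0.0673) and 0.38 (95% interval 0.06 to 0.71, adjusted p = 0.0948). For Gins1, ATC replicate 4 was at 6.87, within the PTC range of 6.74 to 7.08, and the gene passed without that tumour (difference 0.53). For Gins2, PTC replicate 5 was the exception, at 9.03 against 8.52 to 8.69 in the other PTC tumours and 8.78 to 9.55 in ATC.

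Genes of polymerases alpha and epsilon and of primase rose in 4 of 5 cases, against 11.5% of all genes. Polymerase delta genes were not among the 32. Pole, the catalytic subunit of the leading-strand polymerase epsilon, was at 7.09, 6.69, 7.04, 6.73 and 7.05 in PTC and at 7.84, 7.99, 7.65, 7.29 and 8.20 in ATC. Every ATC tumour exceeded every PTC tumour (6.92 ± 0.19 against 7.79 ± 0.35, SD, n = 5 each). Pole rose by 0.87 (95% interval 0.52 to 1.22, adjusted p = 0.00285), or 1.83-fold. Its partner subunit Pole2 was at 7.18, 7.32, 7.36, 7.47 and 6.90 in PTC and at 8.08, 8.26, 8.05, 7.08 and 8.05 in ATC. There 4 ATC tumours lay close together above PTC, and ATC replicate 4 was among the PTC values. Pole2 rose by 0.66 (95% interval 0.22 to 1.10, adjusted p = 0.038), a call that held in only 2 of the 10 fits that left out an array, those without PTC replicate 4 or ATC replicate 4 (difference 0.86 in the latter).

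Primase makes the RNA primers that polymerase alpha extends. The primase large subunit Prim2 rose from 7.52 to 7.73 in PTC to 7.94 to 8.60 in ATC with no overlap (difference 0.64, 95% interval 0.34 to 0.94, adjusted p = 0.00656). The catalytic small subunit Prim1 was at 9.06, 9.08, 9.28, 9.23 and 9.18 in PTC and at 9.10, 10.01, 9.55, 9.09 and 9.91 in ATC. ATC replicates 1 and 4 were at PTC level and the other 3 well above it (difference 0.37, 95% interval −0.02 to 0.75, adjusted p = 0.173). Pola1, the catalytic subunit of polymerase alpha, ranged from 8.19 to 8.76 in PTC and from 8.68 to 9.35 in ATC (difference 0.47, 95% interval 0.14 to 0.80, adjusted p = 0.045). It kept its call in 3 of the 10 fits that left out an array.

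The clamp loader subunit genes Rfc3, Rfc4 and Rfc5 rose, and Pcna, the clamp itself, did not pass. Rfc4 was at 7.62, 8.17, 7.85, 7.72 and 7.49 in PTC and at 8.73, 8.72, 9.12, 8.44 and 8.69 in ATC. The groups were separate, at 7.77 ± 0.26 and 8.74 ± 0.24 (SD, n = 5 each), and unlike most of these genes Rfc4 was spread no more widely in ATC than in PTC. The difference was 0.97 (95% interval 0.66 to 1.29, adjusted p = 0.000925). Rfc3 was at 8.60, 8.51, 8.56, 8.39 and 8.07 in PTC and at 9.10, 8.84, 9.31, 8.99 and 9.02 in ATC. It too was separate (difference 0.62, 95% interval 0.37 to 0.88, adjusted p = 0.00315), with PTC replicate 5 the lowest tumour for both subunits. Rfc5 rose by a smaller 0.29 (95% interval 0.09 to 0.50, adjusted p = 0.0471), from 8.96 to 9.32 in PTC to 9.23 to 9.62 in ATC. That call held in 2 of the 10 fits that left out an array.

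Pcna, the sliding clamp, was at 11.76, 11.89, 11.81, 11.80 and 11.53 in PTC and at 11.96, 12.06, 11.94, 11.58 and 11.99 in ATC. The 4 ATC tumours other than replicate 4 lay slightly above the PTC range, and replicate 4 lay near the PTC minimum. The difference was 0.15 (95% interval −0.07 to 0.37, adjusted p = 0.351). A second Pcna probe set gave the same difference, 0.15, and followed the first closely in every tumour. Its neighbours in the numbering of the array lie on chromosome 19 (9 of 10), where the RefSeq table lists the pseudogene Pcna-ps2, whereas Pcna lies on chromosome 2. Whether the probe sets also measure that copy was not tested.

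Okazaki fragments are trimmed by the flap nuclease Fen1 and sealed by DNA ligase 1. Fen1 ranged from 6.80 to 7.03 in PTC and from 7.03 to 7.44 in ATC, rising by 0.30 (95% interval 0.11 to 0.49, adjusted p = 0.0322). It kept the call in 4 of the 10 fits that left out an array. Lig1 was at 7.99, 7.76, 7.86, 7.78 and 7.86 in PTC and at 8.01, 8.10, 7.77, 7.56 and 8.34 in ATC. Its ATC values straddled the PTC range (difference 0.11, 95% interval −0.18 to 0.39, adjusted p = 0.629).

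**Figure D3:**
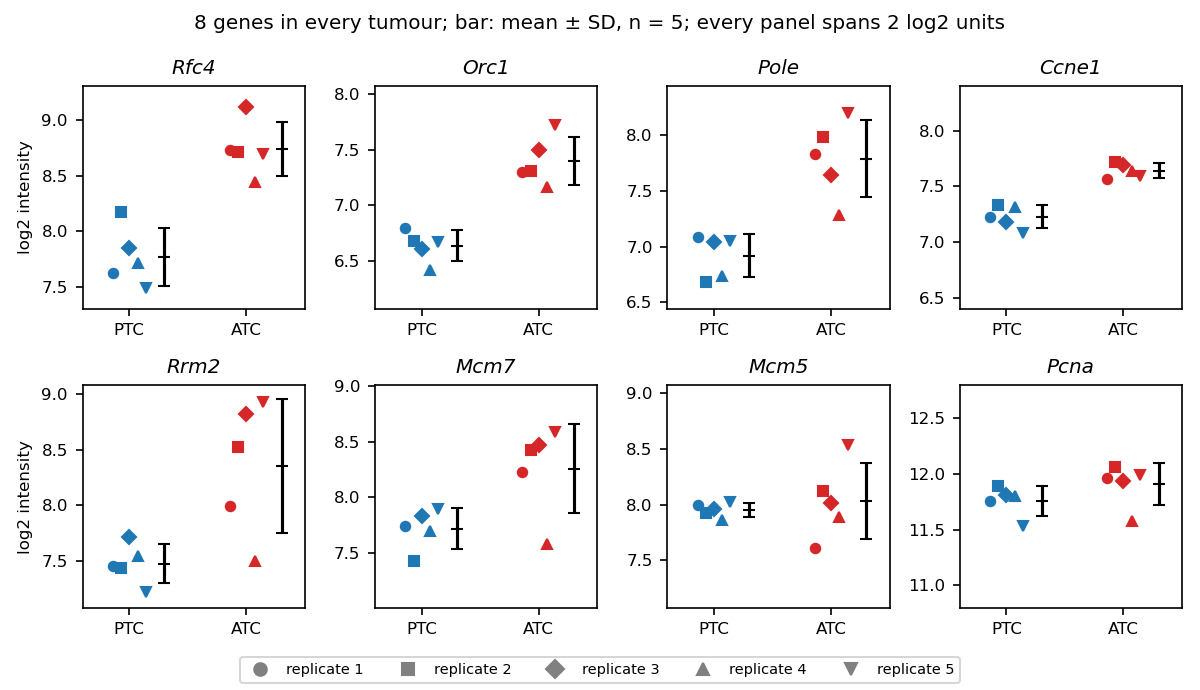
Log2 intensity of 8 genes in each tumour (symbols by replicate number, PTC blue and ATC red) with the mean ± SD of n = 5; every panel spans 2 log2 units. Rfc4, Orc1, Pole and Ccne1 show separate groups, ATC replicate 4 (upward triangle) lies within the PTC range for Rrm2, Mcm7, Mcm5 and Pcna, and Mcm5 and Pcna did not pass.

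Nucleotide supply genes rose in 3 of 4 cases, against 11.5% of all genes. Rrm1 and Rrm2 encode the large and small subunits of ribonucleotide reductase, the enzyme that makes deoxyribonucleotides. Rrm2 was at 7.46, 7.44, 7.72, 7.55 and 7.23 in PTC and at 7.99, 8.53, 8.82, 7.50 and 8.93 in ATC. It had the widest ATC spread of the 32 genes (SD 0.60), with replicate 4 at PTC level and replicates 3 and 5 highest. The rise was 0.88 (95% interval 0.35 to 1.41, adjusted p = 0.0242), and the call was lost on leaving out PTC replicate 1, PTC replicate 5, ATC replicate 3 or ATC replicate 5 (difference 0.73 in the last case). Rrm1 was at 9.02, 9.28, 9.20, 9.05 and 8.75 in PTC and at 9.64, 10.15, 9.52, 9.31 and 10.31 in ATC. Its groups were separate by a narrow margin (difference 0.73, 95% interval 0.32 to 1.13, adjusted p = 0.0166).

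Tyms, the thymidylate synthase and a target of fluorouracil, was at 7.96, 7.96, 8.09, 7.97 and 7.83 in PTC and at 8.35, 8.81, 8.72, 8.37 and 9.01 in ATC. All ATC tumours lay above PTC, by 0.69 on average (95% interval 0.42 to 0.96, adjusted p = 0.00272). Tk1, the S-phase thymidine kinase, was the one gene with a difference below 0, −0.38 (95% interval −0.73 to −0.02, adjusted p = 0.128). It passed as lower without ATC replicate 5 and with array weights, and its sign depended on the probe set. The probe set chosen by the rule for its higher mean was at 9.07, 9.23, 9.36, 9.28 and 9.13 in PTC and at 8.75, 9.07, 8.25, 8.85 and 9.27 in ATC. The other Tk1 probe set was at 8.05, 7.81, 8.04, 8.02 and 8.03 in PTC and at 7.90, 8.35, 7.86, 8.04 and 8.51 in ATC. That second set differed by 0.14 (adjusted p = 0.537 over all probe sets), with ATC replicates 2 and 5 above the PTC range. Tk1 lies on chromosome 11, as do all 10 numbering neighbours of the second probe set, whereas the 8 placed neighbours of the first lie on chromosome 8. Whether the first set measures a copy of Tk1 was not tested, and no direction is given for this gene.

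In G1/S control, both E-type cyclins rose. Ccne1 was at 7.23, 7.33, 7.18, 7.31 and 7.08 in PTC and at 7.56, 7.72, 7.69, 7.63 and 7.59 in ATC. It had the tightest ATC values of the 32 genes (SD 0.066), and ATC replicate 4 did not stand apart. The difference was 0.41 (95% interval 0.26 to 0.56, adjusted p = 0.00182). Ccne2 was at 7.99, 8.19, 7.86, 8.10 and 7.49 in PTC and at 8.92, 8.98, 8.80, 7.84 and 8.86 in ATC. Here 4 ATC tumours lay close together and replicate 4 was within the PTC range (difference 0.75, 95% interval 0.29 to 1.22, adjusted p = 0.0262). The Ccne2 call held in 4 of the 10 fits that left out an array and the difference was 0.96 without ATC replicate 4. E2f1, the activator that drives S-phase genes, was at 7.01, 6.92, 6.88, 6.93 and 7.02 in PTC and at 7.18, 7.05, 7.07, 7.10 and 7.54 in ATC. The groups were narrowly separate, yet the gene did not pass (difference 0.24, 95% interval 0.03 to 0.44, adjusted p = 0.105), and the difference was 0.15 without ATC replicate 5.

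**Figure D4:**
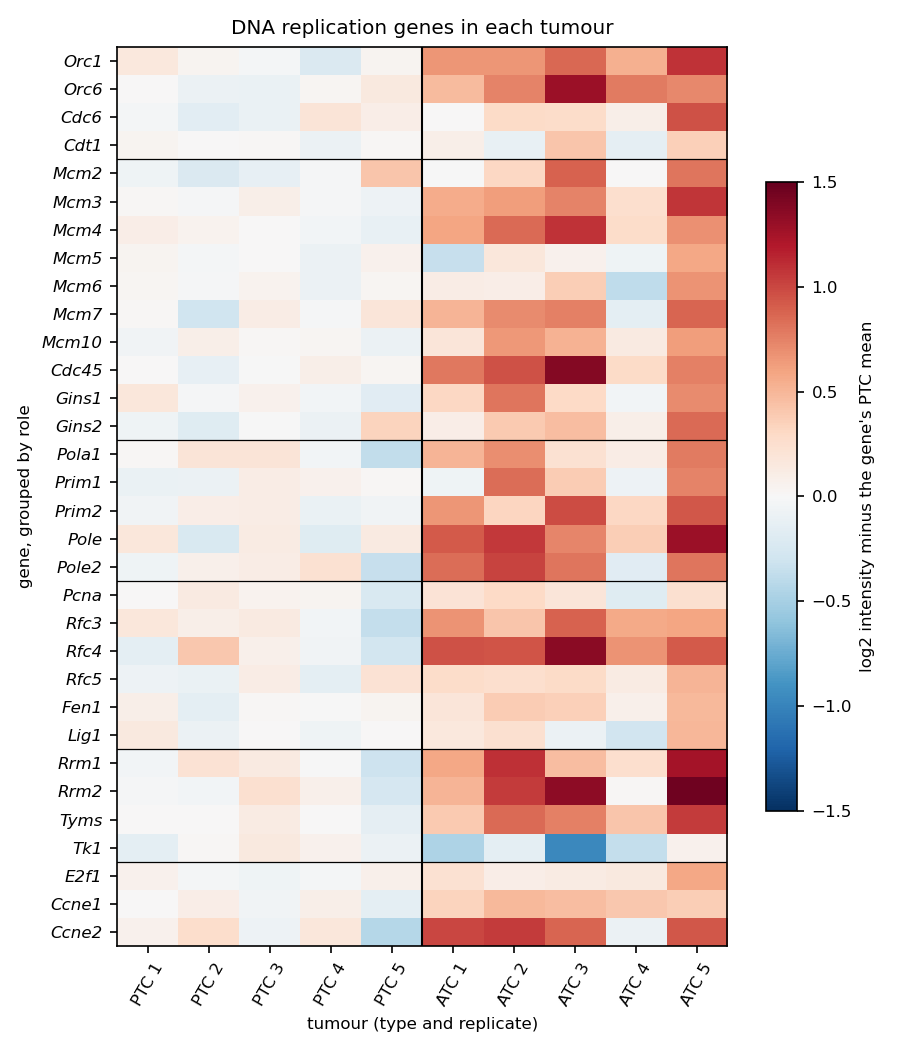
Log2 intensity minus the gene's PTC mean (colour) for the 32 genes (rows, grouped by role) in the 10 tumours (columns). The ATC columns are mostly red, ATC replicate 4 is the palest of them with a median of 0.10, and the Tk1 row is blue in ATC replicates 1 to 4.

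The ATC tumours differed among themselves across most of the 32 genes. The median over the 32 genes of the value minus its PTC mean was 0.36, 0.63, 0.50, 0.10 and 0.75 in ATC replicates 1 to 5, and from −0.025 to 0.051 in the PTC tumours. ATC replicate 4 held the lowest ATC value for 23 of the 32 genes and replicate 5 the highest for 17. Replicate 4 exceeded all 5 PTC tumours for 14 genes and the other ATC tumours did so for 26 to 31. With these tumours spread out, 28 of the 32 genes (87.5%) had the larger SD in ATC, against 68.6% of all genes, and the median SD was 0.12 in PTC and 0.31 in ATC. The median over all genes of the same quantity was −0.054 to 0.018 in the ATC tumours. Without ATC replicate 4, 21 genes rose, against 11.5% of all genes, and with the replicate number as a block 18 rose, against 10.3%.

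The order of the ATC tumours was similar for mitosis genes. Of 19 measured mitosis genes 18 rose, against 11.5% of all genes, and 0 fell, with a median difference of 1.11. Their median shift in ATC replicates 1 to 5 was 1.10, 1.51, 1.01, 0.30 and 1.69. Replicate 4 was lowest and replicate 5 highest in both sets. Mki67, the antigen used to count cycling cells, was at 8.59, 8.55, 8.57, 8.44 and 8.47 in PTC and at 9.09, 9.80, 9.11, 8.55 and 9.98 in ATC. It rose by 0.78 (95% interval 0.28 to 1.28, adjusted p = 0.0303), a call lost in 7 of the 10 fits without 1 array (any PTC replicate, or ATC replicate 2 or 5), and replicate 4 was at PTC level. Bub1, Tpx2 and Cenpe, which act in the spindle checkpoint, the spindle and at kinetochores, had the largest differences of the list, 1.62, 1.62 and 1.53 (adjusted p = 0.00425, 0.00102 and 0.000425).

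**Figure D5:**
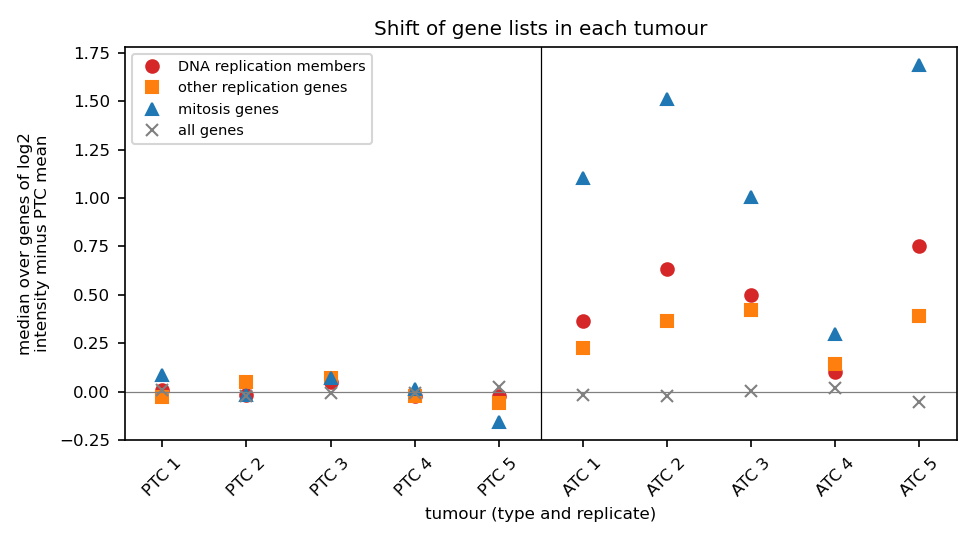
Median over genes of log2 intensity minus the PTC mean (y axis) for the 32 replication genes, 50 other replication genes, 19 mitosis genes and all genes in each tumour (x axis). ATC replicate 4 is lowest of the ATC tumours for the 3 lists, at 0.10, 0.14 and 0.30, and all genes stay near 0.

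Outside the 32, 24 genes of a further list of 50 replication genes rose, against 11.5% of all genes. In that list 0 fell and 26 did not pass, with a median of 0.33. A subunit gene of the kinase that fires origins had the largest difference of the list. Dbf4, the regulatory subunit that gives the kinase its name, was at 7.72, 7.98, 7.77, 7.86 and 7.24 in PTC and at 9.75, 9.28, 9.29, 8.97 and 9.25 in ATC. No tumour of one type came near the other, replicate 4 included, and the rise of 1.60 (95% interval 1.25 to 1.94, adjusted p = 0.00013) was 3.02-fold. Its catalytic partner Cdc7 rose by 0.73 (SE 0.15, adjusted p = 0.00522). Mtbp, which acts with treslin in origin firing, was at 7.52, 7.61, 7.53, 7.26 and 7.35 in PTC and at 8.69, 8.67, 9.37, 8.59 and 8.85 in ATC. It rose by 1.38 (SE 0.14, adjusted p = 0.000147). Top2a, the topoisomerase that separates replicated chromosomes, rose by 1.30 (SE 0.23, adjusted p = 0.0026).

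The single-strand binding genes Rpa1 and Rpa2 rose by 0.44 (SE 0.11, adjusted p = 0.017) and 0.34 (SE 0.083, adjusted p = 0.0135). Rpa3 of the same complex rose by 0.84 (SE 0.15, adjusted p = 0.00303). Gmnn, which encodes the Cdt1 inhibitor geminin, was at 7.57, 7.58, 7.71, 7.79 and 7.22 in PTC and at 7.74, 7.89, 7.78, 6.90 and 8.06 in ATC. ATC replicate 4 was the lowest tumour of all, and the difference was 0.095 (95% interval −0.33 to 0.52, adjusted p = 0.788). Among 14 other nucleotide supply genes 4 rose, against 11.5% of all genes, and 0 fell, with a median of 0.23. The dUTPase gene Dut rose by 0.70 (SE 0.16, adjusted p = 0.0106), the pyrimidine synthesis gene Umps by 0.66 (SE 0.10, adjusted p = 0.00106) and the nucleoside diphosphate kinase gene Nme1 by 0.40 (SE 0.096, adjusted p = 0.0127).

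Of 14 other E2F and G1/S genes 9 rose, against 11.5% of all genes, and 0 fell, with a median of 0.47. E2f8, an atypical E2F that represses E2F targets, had the largest difference of this list. It was at 7.86, 7.32, 7.41, 7.38 and 7.54 in PTC and at 9.77, 9.30, 10.02, 8.91 and 9.30 in ATC, which is 7.50 ± 0.22 against 9.46 ± 0.44 (SD, n = 5 each). The rise of 1.96 (95% interval 1.54 to 2.37, adjusted p = 0.000125) was 3.88-fold, and all tumours were separate by type. Its relative E2f7 rose by 0.29 (SE 0.075, adjusted p = 0.0178), with overlapping groups. Ccna2, the S and G2 phase cyclin, rose by 1.66 (SE 0.19, adjusted p = 0.000288), and Fbxo5, an inhibitor of the anaphase-promoting complex, by 0.90 (SE 0.20, adjusted p = 0.00737). E2f4, an E2F of the repressive complexes, and Cdk2, the partner kinase of cyclins E and A, differed by 0.41 (adjusted p = 0.0583) and 0.24 (adjusted p = 0.0589). They passed in several of the other fits.

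Markers of several cell types also differed between the tumour types. Over all genes 11.5% rose and 9.72% fell. Whether the marker differences reflect cell numbers or RNA per cell was not tested. All 10 macrophage markers measured rose (mean log2 level of the list 9.28 to 9.73 in PTC and 10.65 to 11.41 in ATC). Of 8 epithelial markers 6 fell (10.47 to 10.61 and 8.12 to 9.78), and of 8 thyroid follicular markers 2 fell (8.24 to 9.38 and 6.84 to 8.59). The part of these shifts in the replication genes was not tested. Macrophage markers, with median shifts of 1.61, 1.41, 0.86, 1.43 and 1.73 in ATC replicates 1 to 5, did not single out replicate 4. The median shifts of epithelial and thyroid follicular markers in ATC replicate 4 were −1.12 and −0.57. Of the ATC tumours only replicate 2, at −0.70 and −0.24, lay nearer to PTC in these lists. Whether cell composition bears on the low values of replicate 4 was not tested. Levels of the thyroid genes Tg and Pax8 were uneven among the ATC tumours. Tg, thyroglobulin, was at 11.28 to 12.88 in PTC and at 7.17, 12.00, 6.84, 11.48 and 10.23 in ATC. In ATC replicates 1 and 3 it lay below the array medians of 7.27 and 7.25. Pax8, a thyroid lineage factor, was at 8.87 to 9.97 in PTC and 7.04 to 8.95 in ATC. Tg and Pax8 did not pass (adjusted p = 0.0583 and 0.0564 by limma) and are not among the 2 that fell. Of the remaining marker lists, T cell markers fell in 2 of 5 cases, B cell markers in 1 of 4, fibroblast markers in 2 of 6 and endothelial markers in 2 of 6. Skeletal muscle (6 genes), parathyroid (2) and erythroid (2) markers had 0 that passed, and 0 markers of these 7 lists rose.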

How the data were processed

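The deposited table holds 35556 probe sets on 10 arrays. Of tools, Affymetrix Power Tools and limma are named in the submitters' processing notes, with neither version nor role; how background and normalization were handled, and on which build, is not given in the sources used here. No source names the scale. The values, 2.79 to 14.15 (array medians 7.25 to 7.34), were taken to be the authors' normalized log2 intensities and tested as deposited. RNA was biotin-labelled, per the labels' protocols. Platform annotation gave 21789 probe sets 1 symbol, 1621 several and 12146 none; only those with 1 symbol name a gene.

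ATC minus PTC was fitted over 19938 genes in limma 3.58.1 (lmFit, eBayes; R 4.3.3), without covariates or filter, with Benjamini-Hochberg adjustment at 0.05. Intervals are 95% intervals of that fit. The fit was also run on simulated data, with independent genes and the same SD in both groups. Of the 32 genes here 28 had the larger SD in ATC, so that run does not show how the fit behaves on them. No detection calls were available to the fit, dim genes can show compressed differences, and precision is limited by the number of arrays. Levels were not compared between genes.

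The members and lists were chosen with earlier results of these data known. Named besides the members are the 3 genes of each pathway list with the largest absolute difference, and Mki67, Top2a, Ccna2, Dbf4, Cdc7, Gmnn, Rpa1, Rpa2, E2f4, E2f7, E2f8 and Cdk2. Rpa3 was added afterwards, beside Rpa1 and Rpa2. The rule also took 2 genes of each marker list, but those lists are given by counts, beside Tg and Pax8. Listed genes lacking such a probe set were left out. Alternatives were a replicate block, other probe set choices, a filter on dim genes, 2 scalings, a variance trend, array weights and each array left out. A fit without the lowest-weight array of each group and the second Tk1 probe set were chosen after seeing the data. Tables, motif searches and figures were made in Python 3.11.15 (matplotlib 3.10.9; pandas 2.3.3; numpy 2.4.6).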

Additional observations from a re-analysis of the deposited data

Results flagged for a closer look

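Within the 5 tumours of a type, 5 values of the 32 replication genes stood apart by Dixon's criterion, among 64 groups examined; chance marks about 1 in 20 groups. Of these, 3 belonged to ATC replicate 4, which was low for Pole2 (7.08, nearest tumour 8.05), Ccne2 (7.84, nearest 8.80) and Pcna (11.58, nearest 11.94). ATC replicate 5 was high for E2f1 (7.54, nearest 7.18), and PTC replicate 4 was low for Cdt1 (7.22, nearest 7.32).

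Among the other genes named except Rpa3, 5 of 44 groups examined held such a value. ATC replicate 4 was low for Bub1 (7.63, nearest 9.06), Tpx2 (8.24, nearest 9.39) and Gmnn (6.90, nearest 7.74). PTC replicate 5 was low for Nme1 (8.44, nearest 8.70), and PTC replicate 2 was high for Rpa2 (7.46, nearest 7.30).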

How the results depend on the processing

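The number of replication genes that rose was 18 with the replicate block (10.3% of all genes). It was 15 to 22 under the other planned settings besides leaving out arrays. With the filter on dim genes, 15 of the 23 members kept rose, against 20.8% of the 10084 genes it kept. That filter required a level above 7.50 in at least 5 arrays. A gene could pass it through the 5 ATC tumours alone, as Ccne1 did, so this count is no separate support. The number that rose ranged from 13 to 21 when 1 array was left out. It was 13 without the lowest-weight array of each group (PTC replicate 5 and ATC replicate 5). The median difference stayed between 0.40 and 0.55 in all of these fits. The number that fell was 1 (Tk1) with array weights and 0 to 1 when 1 array was left out; quantile normalization once more made 1 of the 50 other replication genes fall. Mcm5 and Gmnn changed sign without ATC replicate 5 (−0.044 and −0.0023) and without both lowest-weight arrays (−0.027 and −0.092), and the other Tk1 probe set gave 0.14. Leaving out 1 array moved Mcm5 between −0.044 and 0.19 and Gmnn between −0.0023 and 0.29. Over all genes, same-numbered tumours did not deviate together from their group means (correlations −0.086 to 0.12). That cannot exclude a link that acts on fewer genes, and the labels do not say whether equal numbers are paired. Of the 20 genes that rose, 11 passed in every fit that held them. Of the 12 that did not pass, 3 did so in at least 1 fit, Gins1 and Gins2 as higher and Tk1 as lower. The causes were not tested. Centring and repeated quantile normalization moved the median of all genes from −0.018 to 0.022 and 0.0026. The 5 arrays of each type limit the precision. E2f7 lost its call with the replicate block.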

Other observations

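The mitosis genes shared a different short word in their promoter windows. TTTGAA, the core of the cell cycle homology region known from late cell cycle promoters, was found on either strand in 12 of 17 windows of the mitosis list (70.6%), in 3 of 30 windows of the replication genes and in 17.9% of the windows of all genes. The 3 replication genes were Cdc45, Fen1 and Mcm2. The word CCAAT, bound by NF-Y, was found in 13 of 17 mitosis windows (76.5%), 16 of 30 replication windows (53.3%) and 37.4% of all windows. E2F words were found in 1 of 17 mitosis windows and in 7 of 16 windows of the other E2F and G1/S genes. These are descriptions of letters, not of sites.

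Among PTC tumours, replicate 5 held the lowest value for 14 of the 32 replication genes and the highest for 7. It was lowest for Pola1, Pole2, Pcna, Rfc3, Rfc4, Rrm1, Rrm2, Tyms and both E-type cyclins, and highest for Mcm2, Mcm7, Gins2 and Rfc5.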
